A study of Homo sapiens with 3 samples.

Results

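A set of 10 genes that cells switch on when the ERK kinase is active, most of which feed back to restrain it, were followed in EBC-1 cells, a human line established from a squamous carcinoma of the lung. They were 10 of the 13479 genes with a listed value, found by exact match of the symbols DUSP4, DUSP5, DUSP6, SPRY2, SPRY4, SPRED1, SPRED2, IER3, PHLDA1 and ETV4, and each matched 1 entry. RNA had been measured by CAGE, a method that reads a short tag at the capped 5′ end of each transcript, so a gene's tag number does not scale with its length. The cells had been electroporated with 600 pmol of a negative control siRNA, of RAB11A siRNA 1 or of RAB11A siRNA 2, and the labels give 72 h after plating for all 3. RAB11A is a small GTPase of the recycling endosome, which returns internalised receptors to the cell surface. Each group is 1 library of 1 cell line, no replicate exists, and the same control library enters both comparisons with control.

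Growth factor receptors signal through RAS, RAF and MEK to ERK, and ERK in turn raises the transcription of genes that shut the route down again. Dual specificity phosphatases of the DUSP group remove phosphate from ERK, and Sprouty and SPRED proteins act further upstream, between the receptor and RAF. Because their transcripts are short-lived and follow ERK activity closely, DUSP6, SPRY2, SPRY4, PHLDA1 and ETV4 are widely used as a transcript readout of the pathway. EBC-1 is known for amplification of MET, the hepatocyte growth factor receptor, on which its growth depends.

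Values were deposited as tags scaled to a fixed library total (CPM), and their spacing of 0.04 CPM per tag gave between 24999949 and 24999950 tags a library. Tags summed over genes came to between 25137457 and 25204585, more than these totals, so some tags may count for more than 1 gene. How tags with several matches were handled and how the equal totals arose are not stated in the labels, while the intervals and the binomial test below take tags as independent counts. RAB11A stood at 135 CPM with control, 7.48 with siRNA 1 and 22.7 with siRNA 2, or 5.53% and 16.8% of control. Of 13 squamous markers looked up, 3 matched a listed gene (SFN, PERP and S100A2), and TP63, SOX2 and KRT5 matched none. Of 5 epithelial markers, 4 matched a listed gene (KRT8, KRT18 and KRT19, keratins of simple epithelium, and EPCAM), and CDH1 matched none. KRT19 stood at 109 CPM with control, 175 with siRNA 1 and 151.6 with siRNA 2 (values below are in the same order). KRT18 stood at 386, 475 and 394 CPM, and KRT8 at 328, 358 and 329. EPCAM stood at 4.2, 4.28 and 3.72 CPM, below the mean of 5 CPM required for the comparisons below. Of 13 markers for leukocytes, alveolar cells, endothelium and fibroblasts, 3 matched a listed gene, and their sum was 48.0, 24.4 and 34.0 CPM. Nearly all of that was CD68, a lysosomal glycoprotein of macrophages that other cells also make, at 45.2, 21.1 and 31.4 CPM, and PTPRC, PECAM1 and SFTPC matched none. Whether these markers had a part in the values below was not tested.

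The siRNAs and 3 promoters are shown first, because the siRNAs define the groups and the promoters belong to the phosphatase and the pair of Sprouty genes on which the results turn. In each siRNA, read as a sense strand, the capitals are the 7 letters that a guide's seed (positions 2 to 8) would pair with.
RAB11A siRNA 1: gcauccagguuGAUGGAAa
RAB11A siRNA 2: agcaagagcuuUUGCAGAa
Over the 9599 genes that averaged 5 CPM or more and have an annotated canonical 3′ UTR, 14.6% held the 7 letters of siRNA 1 and 16.1% those of siRNA 2. SPRY4 and SPRED2 each held 1 match for siRNA 1 and 0 for siRNA 2. DUSP5 held 1 match for siRNA 2 and SPRED1 held 2, and neither held one for siRNA 1. DUSP6, SPRY2, IER3, PHLDA1 and ETV4 held no match for either siRNA. The median 3′ UTR of all these genes was 1337 bases, against 3779 in SPRY4, 2650 in SPRED2, 5585 in SPRED1 and 1107 in DUSP5. PHLDA1, without a match, had 4672. A longer stretch has more places for a match, and the shares over all genes are not matched for length. A match is a run of letters, not a measured site.

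Promoter windows of 300 bases, from 250 before to 50 after an annotated start, came from RefSeq on GRCh38.p14, a different build from the hg19 of the deposited data. They matched 6 of the 10 genes, and DUSP4, DUSP5, IER3 and ETV4 had no entry. Capitals mark letters searched on both strands.
DUSP6, chr12:89352452-89352751, minus strand: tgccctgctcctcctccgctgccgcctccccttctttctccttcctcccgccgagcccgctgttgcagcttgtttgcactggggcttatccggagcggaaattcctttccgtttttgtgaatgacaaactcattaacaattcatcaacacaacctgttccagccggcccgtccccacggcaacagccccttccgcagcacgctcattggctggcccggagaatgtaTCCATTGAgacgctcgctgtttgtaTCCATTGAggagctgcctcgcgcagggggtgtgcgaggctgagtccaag
SPRY4, chr5:142324198-142324497, minus strand: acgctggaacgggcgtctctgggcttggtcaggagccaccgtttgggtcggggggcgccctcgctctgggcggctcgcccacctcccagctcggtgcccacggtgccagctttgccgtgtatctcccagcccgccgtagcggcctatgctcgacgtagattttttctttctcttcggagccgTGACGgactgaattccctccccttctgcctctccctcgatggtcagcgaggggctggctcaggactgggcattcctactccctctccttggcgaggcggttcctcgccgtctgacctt
SPRY2, chr13:80341077-80341376, minus strand, the most upstream of 3 annotated windows: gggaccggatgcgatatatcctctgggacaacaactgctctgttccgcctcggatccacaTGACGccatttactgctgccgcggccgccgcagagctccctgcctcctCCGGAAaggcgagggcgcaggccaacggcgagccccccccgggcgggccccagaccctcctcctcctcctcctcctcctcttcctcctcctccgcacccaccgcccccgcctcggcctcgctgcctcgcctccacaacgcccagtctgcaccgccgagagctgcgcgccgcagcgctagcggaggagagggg
The DUSP6 window held TCCATTGA in both marked places, beginning 24 bases before and 1 base after the start. Read on the other strand this is TCAATGGA, 1 of the 4 letter runs (TGAATGAA, TGAATGGA, TCAATGAA and TCAATGGA) searched for CIC, a transcriptional repressor of ETV and DUSP genes that ERK signalling inactivates. At least 1 of these runs was found in 3.77% of 35116 windows. None of the other 8 windows of these genes held one. The ETS-type run CCGGAA was in the SPRY2 window shown, in the PHLDA1 window (as TTCCGG) and in 17.2% of all windows. The run TGACG, a partial cAMP response element, was in the SPRY4 and SPRY2 windows shown, in 1 of 2 SPRED2 windows and in 24.6% of all. The AP-1 run TGACTCA and TATAAA were each found in the other SPRED2 window only, against 4.95% (with TGAGTCA) and 11.5% of all windows. The full element TGACGTCA and the CArG box of serum response factor were found in no window of these genes. The deposited table gives 1 value per gene, so the values below cannot be assigned to one start.

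In the control library the 10 genes spanned a wide range of levels. PHLDA1, a pleckstrin-homology-like protein linked to survival and receptor signalling, was highest at 187 CPM (4682 tags, 95% Poisson interval 182.0 to 193). DUSP5, a nuclear ERK phosphatase, followed at 116.6 CPM, IER3, an early response protein that modulates survival and ERK dephosphorylation, at 96.4, and SPRED2 at 51.3. ETV4 at 33.2, DUSP6 at 31.7, SPRY2 at 30.9 and SPRY4 at 28.7 CPM lay close together, and the intervals of each pair of neighbours in that order overlapped. SPRED1 stood lower, at 15.6 CPM. DUSP4, another nuclear ERK phosphatase, was lowest at 2.96 CPM, below the mean of 5 CPM (125 tags) required for the comparisons, which left 9 of the 10 genes. Over the 3 libraries the mean of PHLDA1 was above that of 91.4% of listed genes and the mean of SPRY4 above that of 49.9%.

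**Figure D1:**
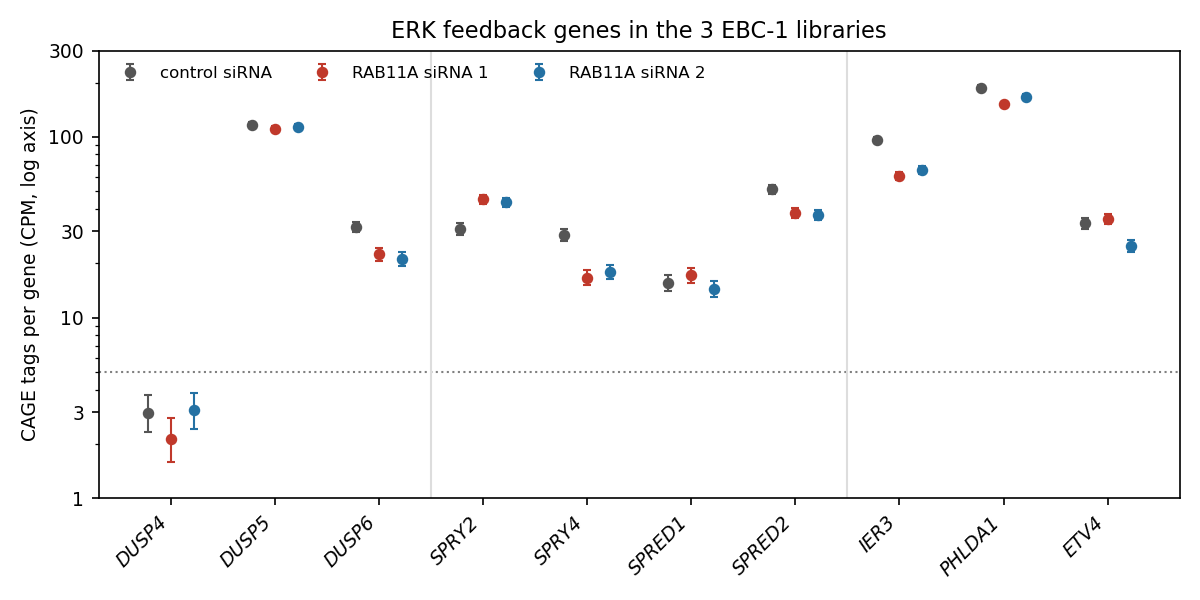
CAGE tags per gene in CPM on a log axis for the 10 genes, grouped as phosphatases, Sprouty and SPRED genes, and other ERK-induced genes. Points are single libraries, bars are 95% Poisson intervals that cover counting error only, and the dotted line is 5 CPM. SPRY4, DUSP6, SPRED2 and IER3 sit below control in both siRNA libraries, SPRY2 sits above, and DUSP5 keeps between 111 and 116.6 CPM.

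Among the phosphatases, DUSP6 was lower with both RAB11A siRNAs and DUSP5 was not far from control in either. DUSP6 (ENSG00000139318, chr12:89741012-89746278, minus strand, GRCh37), the cytoplasmic phosphatase most specific for ERK, stood at 31.7 CPM with control, 22.4 with siRNA 1 and 21.2 with siRNA 2. Both siRNA libraries lay below the control's interval of 29.6 to 34.0 CPM, and their own intervals overlapped each other. In such bulk libraries, fewer expressing cells and less RNA per cell cannot be told apart. The log2 ratios of (CPM + 1) to control were -0.48 (counting standard error 0.077) and -0.56 (0.078). DUSP5 (ENSG00000138166, chr10:112257665-112271291, plus strand) stood at 116.6, 111 and 114 CPM, with ratios of -0.07 (counting standard error 0.038) and -0.03 (0.038), and all 3 intervals overlapped. The DUSP5 ratio with siRNA 2 was 0.02 under TMM and under median-ratio scaling, so its sign depends on the scaling. DUSP4 (ENSG00000120875, chr8:29190581-29208201, minus strand) stood at 2.96, 2.12 and 3.08 CPM, from 74, 53 and 77 tags, and its intervals overlapped, so no difference was detectable at this depth.

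The Sprouty genes differed in direction. SPRY4 (ENSG00000187678, chr5:141689992-141706020, minus strand) stood at 28.7 CPM with control, 16.6 with siRNA 1 and 17.9 with siRNA 2, and SPRY2 (ENSG00000136158, chr13:80910111-80915261, minus strand) at 30.9, 45.2 and 43.4. For both genes the siRNA libraries lay outside the control's interval and their intervals overlapped each other. SPRY4 had the lowest ratios to control of the 9 compared genes, -0.75 (counting standard error 0.085) and -0.65 (0.083), below those of all but 1.2% and 1.3% of measured genes. SPRY2 had the highest, 0.53 (0.066) and 0.48 (0.066), above 96.4% and 97.8% of measured genes. Sprouty proteins are made from separate loci but block the same route from receptor to RAS. The summed level of SPRY2 and SPRY4 was 59.6, 61.8 and 61.3 CPM, while the share of it from SPRY2 was 51.8% with control (95% exact binomial interval 49.3% to 54.4%), 73.1% with siRNA 1 (70.8% to 75.3%) and 70.8% with siRNA 2 (68.5% to 73.1%). This sum and share were chosen after the values were seen. AC005592.2, a listed gene on the opposite strand within SPRY4, stood at 2.16, 1.80 and 1.32 CPM.

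The SPRED genes, whose proteins bring the RAS inactivator NF1 to the membrane, were unlike each other. SPRED2 (ENSG00000198369, chr2:65537985-65659771, minus strand) stood at 51.3 CPM with control, 38.2 with siRNA 1 and 36.8 with siRNA 2, with ratios of -0.42 (counting standard error 0.060) and -0.47 (0.061). Both siRNA libraries were below the control's interval of 48.6 to 54.2 CPM. SPRED1 (ENSG00000166068, chr15:38545037-38649450, plus strand) stood at 15.6, 17.1 and 14.4 CPM, with ratios of 0.13 (0.095) and -0.11 (0.099), and its intervals all overlapped. SPRED2 and SPRY4 hold the letters of siRNA 1, with ratios of siRNA 1 to siRNA 2 of 0.05 (0.065) and -0.10 (0.093). SPRED1 and DUSP5 hold those of siRNA 2, and the same ratio was 0.23 (0.097) and -0.04 (0.038). Whether these letters had a part in the values was not tested.

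Of the remaining ERK-induced genes, IER3 and PHLDA1 were lower with both siRNAs and ETV4 with siRNA 2. IER3 (ENSG00000137331, chr6:30710976-30712325, minus strand) stood at 96.4 CPM with control, 60.7 with siRNA 1 and 65.6 with siRNA 2, with ratios of -0.66 (counting standard error 0.047) and -0.55 (0.046). PHLDA1 (ENSG00000139289, chr12:76419227-76425556, minus strand) stood at 187, 152.0 and 167 CPM, with smaller ratios of -0.30 (0.031) and -0.16 (0.031). For both genes all intervals were apart from the control's, and for PHLDA1 the siRNA 1 and siRNA 2 intervals were also apart. ETV4 (ENSG00000175832, chr17:41605212-41656988, minus strand), an ETS transcription factor of the PEA3 group, stood at 33.2, 35.2 and 24.9 CPM. Its control and siRNA 1 intervals overlapped and siRNA 2 lay below both, with ratios to control of 0.08 (0.068) and -0.40 (0.074). DHX8, a listed gene that overlaps ETV4 on the opposite strand, stood at 74.9, 67.5 and 66.5 CPM. Each entry carries a strand, but whether the counting used it is not stated in the labels. No other gene had the same set of values as any of the 10, and identical values would mark shared tags.

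**Figure D2:**
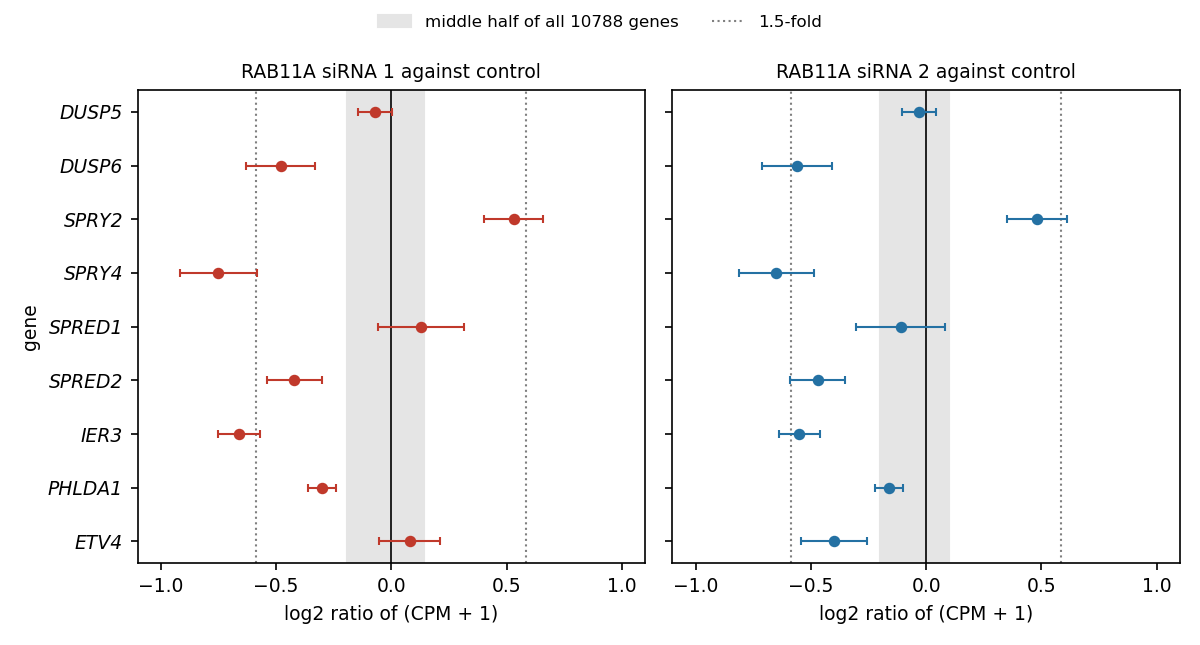
Log2 ratio of (CPM + 1) to the control library for the 9 compared genes, with siRNA 1 in the left panel and siRNA 2 in the right. Bars are 95% counting intervals, the grey band holds the middle 50% of all 10788 genes, and dotted lines mark 1.5-fold. SPRY4 is the leftmost gene in both panels and SPRY2 the rightmost, and ETV4 lies near 0 with siRNA 1 and at -0.40 with siRNA 2.

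None of the 9 genes was 2-fold from control with either siRNA, a size reached by 0.89% of the 10788 measured genes with siRNA 1 and 0.463% with siRNA 2. At least 1.5-fold lower were SPRY4 and IER3 with siRNA 1, or 2 of 9 against 2.56% of all genes, and SPRY4 with siRNA 2, or 1 of 9 against 1.85%. No gene of the set was at least 1.5-fold higher, against 2.81% and 1.24% of all genes. SPRY4 was the 1 gene of the set at least 1.5-fold lower in both libraries, against 0.899% of all genes. With a pseudocount of 5 CPM its ratio with siRNA 2 was -0.56 and no gene of the set was 1.5-fold lower in both. Just short of that size with siRNA 2 were DUSP6 at -0.56 and IER3 at -0.55, and SPRY2 was just short of it in the other direction with siRNA 1. The genes were chosen with earlier results of these data known, so these shares describe the set and are no test of it.

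The median ratio of the 9 genes was -0.30 with siRNA 1 and -0.40 with siRNA 2, beside -0.03 and -0.04 over all measured genes. Below control in both libraries were 6 of the 9 genes, or 66.7% against 44.5% of all genes. The 6 include DUSP5, with ratios of -0.07 and -0.03, the second of which was 0.02 under TMM and under median-ratio scaling. The count and both shares therefore hold for CPM as deposited. Above control in both was 1, SPRY2, or 11.1% against 31.4%, and SPRED1 and ETV4 lay on opposite sides. The 2 comparisons share their control library, so a low or high value there moves both ratios together. Summed over all 10 genes the level was 594.8, 500.6 and 508.7 CPM, which is 0.842 and 0.855 of control, with PHLDA1, DUSP5 and IER3 as its largest parts.

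An exact two-sided binomial test on recovered tags, with Benjamini-Hochberg adjustment over all 13479 genes, compares libraries rather than treatments. Past an adjusted p of 0.05, it called SPRY2 higher with siRNA 1, against 20.1% of genes, and with siRNA 2, against 15.6%. It called DUSP6, SPRY4, SPRED2, IER3 and PHLDA1 lower with siRNA 1, or 5 of 10 against 24.9% of genes. The same 5 and ETV4 were called lower with siRNA 2, or 6 of 10 against 25.2%. More tags let this test call smaller differences, and the shares are not matched for level. Of the 13479 genes 10788 averaged 5 CPM or more, against 9 of the 10 here. An edgeR quasi-likelihood test that treated both siRNA libraries as 1 group against the control library, with 1 residual degree of freedom, called 0 of the 9 genes and 0.121% of all genes. At an unadjusted p under 0.05 that test held DUSP6, SPRY2, SPRY4, SPRED2 and IER3, beside 1510 of the 10788 genes (14.0%), with adjusted p-values of 0.19, 0.097, 0.11, 0.18 and 0.14.

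The siRNA libraries were also set directly against each other. None of the 9 genes was 2-fold apart, against 0.352% of all genes, and none was 1.5-fold apart, against 1.59%. At shares this small, counts of 0 do not set these 9 genes apart from all genes. The median ratio of siRNA 1 to siRNA 2 was 0.05, beside 0.02 over all genes. ETV4 was furthest apart, at 35.2 against 24.9 CPM, a ratio of 0.48 (counting standard error 0.073) that was above 98.2% of measured genes. The binomial test called ETV4 higher with siRNA 1, against 17.7% of genes, and PHLDA1 lower, at 152.0 against 167 CPM, against 12.7%. This comparison does not use the control, and RAB11A itself stood at a ratio of -1.48 in it.

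Relatives of these genes lay on both sides of control. Of 10 other DUSP genes looked up, 5 averaged 5 CPM or more, with medians of 0.09 and -0.01 and none 1.5-fold from control. DUSP1, which prefers the stress kinases p38 and JNK over ERK, stood at 31.1, 30.1 and 30.8 CPM. DUSP3 had ratios of -0.12 and -0.03, and DUSP22 of 0.09 and 0.12. Of 9 relatives of the Sprouty, SPRED, IER, PHLDA and ETV genes, 6 were measured, all of them IER, PHLDA or ETV genes, and no Sprouty or SPRED relative. Their medians were 0.13 and 0.14, again with none 1.5-fold from control. PHLDA2, a relative of PHLDA1, had ratios of -0.14 and 0.14. ETV5, the closest relative of ETV4 and itself an ERK-induced gene, stood at 233, 182 and 218 CPM, with ratios of -0.35 (counting standard error 0.028) and -0.09 (0.027). ETV1, the third PEA3 factor, was higher, at 37.2, 50.2 and 43.1 CPM (0.43 and 0.21). The order of the 2 siRNA libraries therefore differed among the 3 PEA3 genes, with siRNA 1 the higher for ETV4 and ETV1 and siRNA 2 the higher for ETV5.

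Of 18 other negative regulators of the route, 13 were measured, with medians of 0.05 and 0.02, and 2 were at least 1.5-fold lower with siRNA 1 and none with siRNA 2. ERRFI1, a feedback inhibitor that binds EGFR directly, stood at 249, 157 and 174 CPM, with ratios of -0.66 (counting standard error 0.029) and -0.52 (0.028). CBLB, a ubiquitin ligase for activated receptors, stood at 15.5, 9.80 and 14.2 CPM (-0.61 and -0.12). PEBP1, which holds RAF away from MEK, stood at 241, 268 and 273.5 CPM (0.15 and 0.18), and PTPN1, a tyrosine phosphatase of receptors, had ratios of 0.09 and 0.10.

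Of 17 receptors and ligands that feed ERK, 8 were measured, with medians of -0.07 and -0.07. MET stood at 90.0, 91.8 and 93.1 CPM, with ratios of 0.03 (counting standard error 0.042) and 0.05 (0.042). FGF2, a fibroblast growth factor, was lower, at 55.5, 37.3 and 35.6 CPM (-0.56 and -0.63), and was the 1 gene of the list at least 1.5-fold from control, with siRNA 2. EGFR stood at 74.5, 104 and 87.5 CPM (0.48 and 0.23), and FGFR1, a fibroblast growth factor receptor, had ratios of 0.18 and 0.19. Of 20 genes of the RAS to ERK cascade and its adaptors, 18 were measured, with medians of -0.10 and -0.11 and none 1.5-fold from control. Below control in both libraries were 12 of the 18, and 5 were above in both, against 44.5% and 31.4% of all genes. Among the 9 feedback genes, 6 were below in both and 1 above in both. The adaptor SHC1, the most abundant of the cascade and adaptor genes, stood at 863, 595 and 621 CPM (-0.53 and -0.47). MAP2K2, which encodes the ERK kinase MEK2, stood at 199.9, 175.6 and 171 CPM (-0.19 and -0.22). The adaptor GRB2 had ratios of 0.00 and -0.13.

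For the 5 ETS factors that ERK phosphorylates the medians were -0.25 and -0.23, with none 1.5-fold from control. ELK1 was lower in both libraries (-0.31 and -0.23), ELK3 higher in both (0.32 and 0.37), and ETS1 stood at 337, 340 and 272 CPM. Of 12 other transcripts that ERK activity raises, ETV5 not among them, 8 were measured. Their medians were 0.02 and 0.05, beside -0.03 and -0.04 over all measured genes. Above control in both libraries were 4 of the 8, and 3 were below in both, against 31.4% and 44.5% of all genes. FOSL1, an AP-1 subunit and the most abundant, stood at 609, 646 and 652 CPM (0.08 and 0.10), MYC at 172, 166.6 and 155.6 (-0.04 and -0.14), and JUNB at 170.1, 153.8 and 146.9 (-0.14 and -0.21).

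IER3 is also induced by NF-kB, so 7 NF-kB feedback genes were set beside it, all of them measured. Their medians were 0.21 and -0.10, and all 7 were higher with siRNA 1 than with siRNA 2, against 55.0% of all measured genes. IER3 was at 60.7 and 65.6 CPM in these 2 libraries, and its intervals there overlapped. Whether NF-kB had a part in the IER3 values was not tested. BIRC3, an inhibitor of apoptosis, stood at 23.5, 48.1 and 34.8 CPM (1.00 and 0.54), and NFKBIA, the NF-kB inhibitor, at 39.1, 40.4 and 33.7 (0.05 and -0.21). NFKBIE, a related inhibitor, had ratios of 0.38 and 0.17, and TNIP1, a partner of the feedback protein TNFAIP3, of -0.14 and -0.34. Of the p38 and JNK kinases 7 of 8 were measured, with medians of -0.03 and -0.27. MAPK9, which encodes JNK2, stood at 37.2, 33.6 and 24.2 CPM (-0.14 and -0.60), and MAPKAPK2, a p38 target kinase, at 49.3, 42.7 and 33.5 (-0.20 and -0.54). MAP2K3, a kinase that activates p38, had ratios of 0.33 and 0.09, and MAPK14, which encodes p38 alpha, of -0.01 and 0.03.

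**Figure D3:**
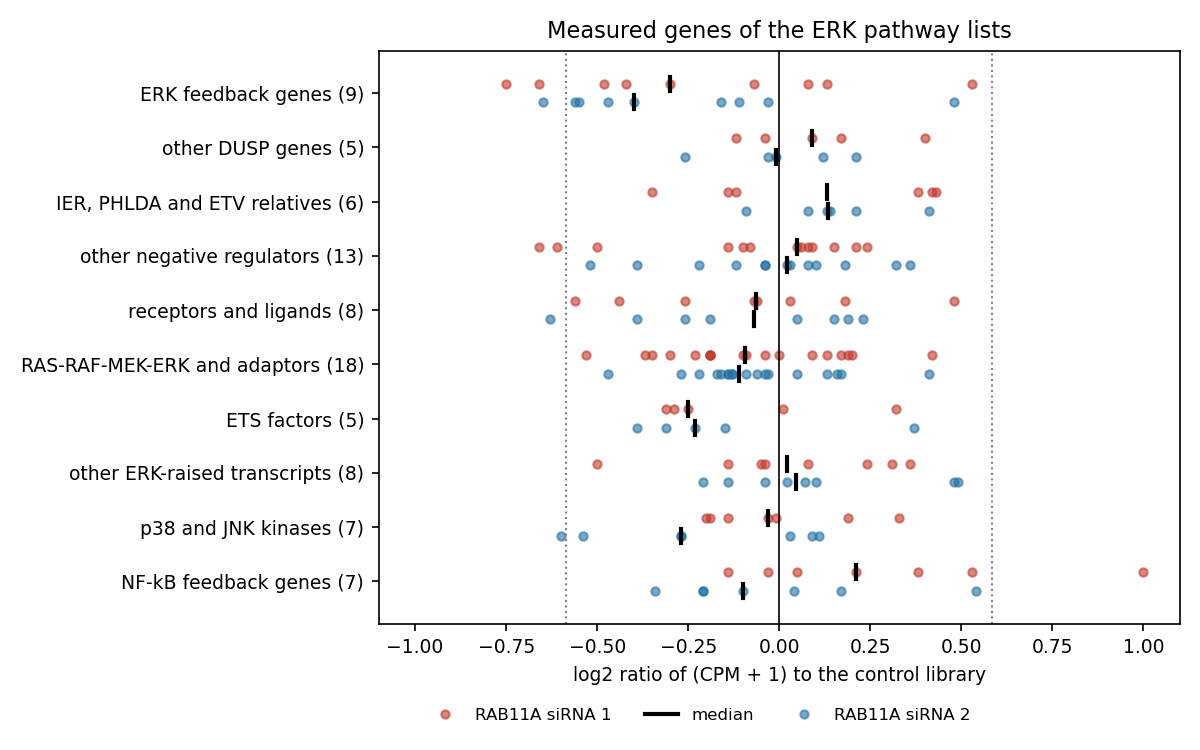
Log2 ratio of (CPM + 1) to the control library for each measured gene of 10 lists, with the number of genes in brackets. Each point is 1 gene in 1 siRNA library, black bars are medians, and dotted lines mark 1.5-fold. The ERK feedback genes have medians of -0.30 and -0.40, ETS factors -0.25 and -0.23, and p38 and JNK kinases -0.03 and -0.27. Other ERK-raised transcripts have medians of 0.02 and 0.05, and the IER, PHLDA and ETV relatives 0.13 and 0.14.

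The genes most like SPRY4, whose ratio to control was furthest from 0 among the members, were found by the distance between their pairs of log2 ratios to control among the 6930 other genes that averaged 20 CPM or more. CLCN3, an endosomal chloride-proton exchanger, was nearest (distance 0.030), at 72.2, 42.2 and 44.6 CPM. CHAC1, a glutathione-degrading enzyme, followed with ratios of -0.72 and -0.61 (distance 0.057), then ESYT1, a membrane contact protein, at 137.5, 83.4 and 90.2 CPM (0.065). FLYWCH1 (0.067) was next, and 13 genes lay within a distance of 0.1. With 3 libraries this likeness rests on 2 ratios that share their control.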

How the data were processed

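The authors deposited CPM per gene from CAGE libraries of EBC-1 total RNA, 1 column per library, and all 3 columns were matched to their libraries by name. The submitters' processing notes name hg19, BWA and HISAT2. Their roles, the counting tool and the annotation release are not stated there. Within 0.005 CPM, 100.0% of the deposited values were whole multiples of 1 tag, so tag numbers were recovered. Every listed gene reached at least 0.52 CPM in 1 library.

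Libraries were compared by the log2 ratio of (CPM + 1) for genes averaging 5 CPM or more. This scale understates the ratios of low genes. Errors and 95% intervals assume independent tags and reflect counting alone (median standard error of a log2 ratio 0.071). With 1 library per group no p-value is a main result. The members, the 15 gene lists, the alternatives and the tests were chosen with earlier results of these data known. Named genes were the members and, per list, up to 6 genes at least 1.5-fold apart in any pair of libraries and the 3 with the highest mean. Of the genes nearest to SPRY4, 1 is not reported here. Markers were named from the lists for cell types. SPRY2's share of Sprouty tags and the genes overlapping members were added after seeing the data. Promoter windows came from RefSeq, 3′ UTRs and gene positions from GENCODE on GRCh37. Alternatives were other pseudocounts, filters and scalings, an exact binomial test on recovered tags, and edgeR 4.0.16 in R 4.3.3. Scripts were tested on simulated data. The rest used matplotlib 3.10.9, scipy 1.17.1, pandas 2.3.3 and numpy 2.4.6 in Python 3.11.15.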

Additional observations from a re-analysis of the deposited data

Results flagged for a closer look

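For SPRED1 and ETV4 the siRNA libraries lay on opposite sides of the control library, and the difference between them was not tested across replicates, because each group has 1 library. SPRED1 had ratios to control of 0.13 and -0.11 and a ratio of siRNA 1 to siRNA 2 of 0.23 (counting standard error 0.097). ETV4 had ratios of 0.08 and -0.40 and a ratio of siRNA 1 to siRNA 2 of 0.48 (0.073).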

How the results depend on the processing

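With 1 library per group, spread between cultures is unknown. No paired analysis was possible because each group has 1 library. Under 7 other pseudocounts, filters and scalings, 184 of 186 ratios of single members stayed within their counting interval with their sign. The exception was DUSP5 with siRNA 2, at 0.02 under TMM and under median-ratio scaling. A filter only decides which genes enter, so the ratios counted under the filters could not change. Only those under other pseudocounts and scalings bear on stability. Other scalings moved the median of all genes by less than 0.05. With a pseudocount of 5 CPM, 0 members were at least 1.5-fold lower with siRNA 2, and 0 in both libraries, where SPRY4 had been 1.5-fold lower with a pseudocount of 1 CPM. With minimum means of 1 CPM and with none, DUSP4 joins and the median with siRNA 2 was -0.28, against -0.43 at 20 CPM. In place of 1.5-fold calls, the binomial test on tags called 1 member higher and 5 lower with siRNA 1, 1 higher and 6 lower with siRNA 2, and 1 higher and 1 lower between the siRNAs. The edgeR test called 0 lower in both siRNA libraries together, and 13 of 10788 genes overall.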
